A study of Mus musculus with 5 samples.

Results

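The adipocyte genes examined here were 10 markers of fat cells and their lipid droplets: *Adipoq*, *Cfd*, *Retn*, *Plin1*, *Plin4*, *Cidec*, *Lipe*, *Lpl*, *Fabp4* and *Ucp1*. They were matched by symbol among the 24421 gene symbols of the count files, and all 10 were found. The list was selected on earlier values of the same comparison, so its differences between genotypes are given as a description and not as a test. The libraries came from the kidney cortex of *Fnip1* null (*Fnip1*-/-) mice 8637, 9210 and 9121 (n = 3) and wildtype (*Fnip1*+/+) mice 9055 and 9056 (n = 2). These genotypes are those of the labels. The text of the study also writes *Fnip1*+/- for its controls, so the mice called wildtype here could be heterozygous, and the counts of mouse 9210 were deposited under a name with another mouse number. All 5 were of the C57BL6J strain, each gave 1 library from flash frozen tissue, and the labels name no treatment. *Fnip1* encodes a partner of Folliculin and AMP kinase. The null allele came from chemical (ENU) mutagenesis and is carried in every tissue, so the kidney of these mice is not the only organ without *Fnip1*. The labels give neither the age nor the sex of the mice. The text of the study gives an age range for its RNAseq mice as a whole. It also gives n = 3 wildtype mice, whereas the data used here hold 2.

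Gene counts per mouse ran from 15799114 to 19132145, and a gene with 3 counts was at 0.158 to 0.186 CPM. CPM is the count of a gene after TMM scaling of the libraries to the same size. *Fnip1* itself was at 21, 16.9 and 16 CPM in null mice 8637, 9210 and 9121 and at 51.7 and 48.6 CPM in wildtype mice 9055 and 9056, a log2 difference of -1.48 (SE 0.138, adjusted p = 0.033, edgeR's quasi-likelihood test). The call of *Fnip1* was lost without 9055, 9056 or 9210, with log2 differences between -1.53 and -1.44. *Xist*, the RNA of the inactive X chromosome, was at 314 CPM in *Fnip1* null mouse 9121 and at most 1.41 CPM in the other 4 mice, whereas the Y-linked genes *Ddx3y*, *Kdm5d* and *Uty* had no count in 9121 only. The libraries of 9121 and the other 4 mice therefore differed in sex chromosome transcripts, and sex and genotype cannot be separated for 9121.

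White adipocytes store triglyceride in a large droplet coated by perilipins and release it as fatty acids through a chain of lipases. They also secrete hormones and complement factors. Brown and beige adipocytes in addition burn fatty acids in mitochondria uncoupled by UCP1. The kidney cortex is made mainly of tubular epithelium and is surrounded by perirenal and renal sinus fat, and some adipocyte genes, *Lpl* and *Fabp4* among them, are also transcribed by other cell types.

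Positions of the members are those of GENCODE M21 on GRCm38. *Adipoq* is at chr16:23146536-23158028, *Cfd* at chr10:79890853-79892655, *Plin4* at chr17:56100591-56109803, *Cidec* at chr6:113424634-113435760 and *Fabp4* at chr3:10204088-10208576. *Plin1* at chr7:79720218-79732903 and *Lipe* at chr7:25379527-25398710 share a chromosome, as do *Retn* at chr8:3655770-3660110, *Lpl* at chr8:68880491-68907448 and *Ucp1* at chr8:83290352-83298452. The genes whose counts followed *Adipoq* most closely over the 5 mice were *Retn*, *Cidec* and *Cfd*, so the 250 bases before the start of these 4 genes are shown, from RefSeq (GRCm38.p6), 5′ to 3′ on the strand of the gene. Capitals mark CCAAT on either strand, where the reverse strand reads ATTGG.
Adipoq (chr16:23146286-23146535, + strand): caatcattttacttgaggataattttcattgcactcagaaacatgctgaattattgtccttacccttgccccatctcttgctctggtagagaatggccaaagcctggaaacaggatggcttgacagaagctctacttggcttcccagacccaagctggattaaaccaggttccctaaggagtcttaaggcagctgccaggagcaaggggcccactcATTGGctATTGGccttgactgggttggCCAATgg
Retn (chr8:3655520-3655769, + strand): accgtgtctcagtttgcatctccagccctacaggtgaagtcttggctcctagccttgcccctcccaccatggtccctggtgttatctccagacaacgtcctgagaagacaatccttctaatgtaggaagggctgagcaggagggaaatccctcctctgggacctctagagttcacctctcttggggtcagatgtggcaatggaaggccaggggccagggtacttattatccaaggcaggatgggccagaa
Cidec (chr6:113435761-113436010, - strand): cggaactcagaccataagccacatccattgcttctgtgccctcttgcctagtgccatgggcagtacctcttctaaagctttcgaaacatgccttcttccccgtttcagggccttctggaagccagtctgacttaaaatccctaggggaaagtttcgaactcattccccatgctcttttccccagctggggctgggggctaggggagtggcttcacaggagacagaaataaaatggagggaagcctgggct
Cfd (chr10:79890603-79890852, + strand): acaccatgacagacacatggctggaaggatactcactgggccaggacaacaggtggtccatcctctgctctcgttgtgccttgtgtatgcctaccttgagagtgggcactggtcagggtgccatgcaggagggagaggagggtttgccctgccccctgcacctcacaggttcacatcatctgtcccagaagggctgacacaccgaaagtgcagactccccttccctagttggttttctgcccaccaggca
The *Adipoq* window held 3 CCAAT matches, which began 34, 27 and 7 bases before the start, the first 2 of them on the reverse strand. The windows of *Retn*, *Cidec* and *Cfd* held none. CCAAT was present in 33.8% of the 32536 promoter windows of this length. Of the other motifs searched on both strands, TATAAA (12.3% of windows) had no match in any of the 8 member windows and TTGCNNAA (9.57% of windows) had matches in *Plin1* alone, 187 and 58 bases before its start. *Plin4* held 1 CCAAT, 18 bases before its start. The 4 genes with the most alike counts therefore shared none of these 3 motifs in this window.

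*Adipoq* encodes adiponectin, a hormone made almost exclusively by adipocytes. It was at 0.497 and 1.31 CPM in wildtype mice 9055 and 9056, and at 0.589, 22 and 8.97 CPM in *Fnip1* null mice 8637, 9210 and 9121, from 8, 23, 10, 371 and 170 counts. Null mouse 8637 lay between the wildtype mice, so the groups overlapped, and the other null mice lay above both. The mean was 10.5 ± 10.8 CPM (SD, n = 3) in null against 0.906 ± 0.578 CPM (SD, n = 2) in wildtype mice, a fitted log2 difference of 3.51 with an SE of 1.37. In a bulk sample more cells of a type cannot be told apart from more RNA per cell, here and for all values that follow.

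*Cfd* encodes complement factor D, also called adipsin, the protease that activates the alternative complement pathway and one of the most abundant transcripts of mouse fat. Its level was 2.48 and 6.46 CPM in wildtype mice 9055 and 9056, and 3.53, 151 and 49.8 CPM in null mice 8637, 9210 and 9121. The pattern was that of *Adipoq*: 8637 lay within the wildtype range, while 9210 and 9121 were 33.8 and 11.1 times the wildtype mean. The groups overlapped, and the log2 difference was 3.92 (SE 1.45).

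*Retn* encodes resistin, a hormone secreted by mouse adipocytes. It was low in 3 mice, with 3 and 13 counts (0.186 and 0.743 CPM) in wildtype mice 9055 and 9056 and 5 counts (0.294 CPM) in null mouse 8637. Null mice 9210 and 9121 had 159 and 95 counts, or 9.45 and 5.01 CPM. The log2 difference between genotypes was 3.36 (SE 1.34), and the groups overlapped through 8637 as for the other secreted proteins.

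Among the droplet proteins, *Plin1* encodes perilipin 1, the coat of the adipocyte droplet that holds back lipolysis. It had 5 and 1 counts in wildtype mice 9055 and 9056 and 2 in null mouse 8637, against 146 and 79 in null mice 9210 and 9121. In CPM these were 0.31, 0.0572, 0.118, 8.67 and 4.17. Because 3 of 5 mice had fewer than 10 counts, *Plin1* was left out of the comparison over all genes, and no fold is given against so few counts. The groups overlapped in mouse 8637 alone.

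*Cidec* encodes the protein that lets fat droplets fuse into a single large one. It was at 1.37 and 2.4 CPM in wildtype mice 9055 and 9056, and at 1.24, 27.8 and 9.6 CPM in null mice 8637, 9210 and 9121. Mouse 8637 was below both wildtype mice, and the other null mice were 14.8 and 5.1 times the wildtype mean. The log2 difference was 2.76 (SE 1.17).

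*Plin4* encodes a perilipin that coats small, newly formed droplets in adipocytes and muscle. Unlike the genes above, its groups did not overlap: wildtype mice 9055 and 9056 were at 2.55 and 2.69 CPM, and null mice 8637, 9210 and 9121 at 8.95, 23.2 and 14.6 CPM. Mouse 8637 was 3.42 times the wildtype mean, from 152 counts against 41 and 47. The means were 15.6 ± 7.19 CPM (SD, n = 3) in null and 2.62 ± 0.0997 CPM (SD, n = 2) in wildtype mice, a log2 difference of 2.57 (SE 0.435). *Plin4* shares 17 exon bases with *Hdgfl2* on the opposite strand, and the strand setting of the counting is not given in the sources used here.

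*Fabp4* encodes the fatty acid binding protein of adipocytes, which capillary endothelium and macrophages also make. It was at 31.8 and 25 CPM in wildtype mice 9055 and 9056, and at 48.4, 138 and 89.3 CPM in null mice 8637, 9210 and 9121, so all null mice lay above both wildtype mice. The log2 difference was 1.69 (SE 0.423), and 8637 was 1.7 times the wildtype mean against 4.84 and 3.14 times in 9210 and 9121. *Plin4* and *Fabp4* were the members with every null mouse above both wildtype mice, 2 of the 8 that could be compared, beside 22.9% of all 13874 genes.

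The lipases differed from the other members. *Lipe* encodes hormone-sensitive lipase, which cuts diglyceride in adipocytes and cholesterol ester in steroid-making cells. It was at 16.3 and 20.7 CPM in wildtype mice 9055 and 9056 and at 18.7, 33.7 and 29 CPM in null mice 8637, 9210 and 9121, a log2 difference of 0.55 (SE 0.26) with overlapping groups. Thus *Lipe* had a clear level in every mouse, and its wildtype counts of 262 and 363 were above those of all other members except *Lpl* and *Fabp4*. Its exons share 918 bases with the antisense gene *4732471J01Rik*, which had between 5 and 9 counts in a mouse.

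*Lpl* encodes lipoprotein lipase, the enzyme that frees fatty acids from triglyceride-rich lipoproteins at the capillary wall. It was the one member at a lower level in *Fnip1* null mice: 765, 489 and 558 CPM in 8637, 9210 and 9121 against 1611 and 1724 CPM in 9055 and 9056. The groups were far apart, with means of 604 ± 144 CPM (SD, n = 3) and 1667 ± 79.8 CPM (SD, n = 2), and the log2 difference was -1.47 (SE 0.213). Every null mouse was below both wildtype mice, as for 23% of all genes tested. In null mice 9210 and 9121 *Lpl* was thus at 0.293 and 0.335 times the wildtype mean, while *Adipoq* was at 24.3 and 9.9 times. Mouse 8637 was on the null side for *Lpl*, at 0.459 times the wildtype mean, and on the wildtype side for *Adipoq*. Its closeness to wildtype mice was not particular to the members. Over all genes tested, log2 CPM of 8637 correlated at 0.987 with wildtype mouse 9055 and 0.984 with 9056. The correlation was 0.986 with null mouse 9210 and 0.972 with 9121.

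*Ucp1* encodes the uncoupling protein of brown and beige fat. It had 1 and 0 counts in wildtype mice 9055 and 9056, and 0, 18 and 6 counts in null mice 8637, 9210 and 9121 (0, 1.07 and 0.317 CPM). Mice 9210 and 9121 were above the level of 3 counts and the other mice were below it. *Ucp1* was too low to be compared over all genes, and no fold is given.

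**Figure D1:**
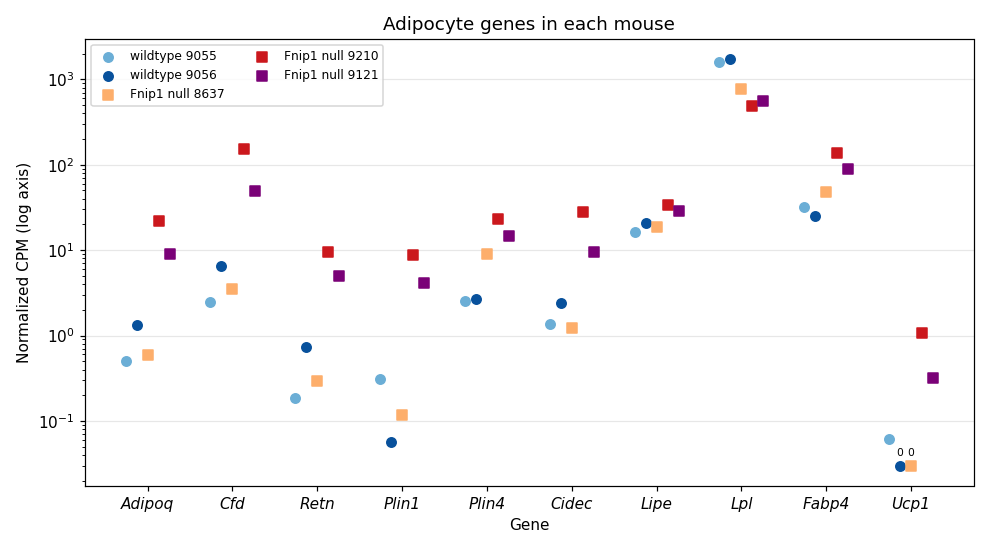
Normalized CPM (log axis) of the 10 adipocyte genes, 1 point per mouse, with circles for wildtype and squares for *Fnip1* null mice. Points marked 0 had no count and are drawn at the bottom of the axis. For *Adipoq*, *Cfd*, *Retn*, *Plin1*, *Cidec* and *Ucp1*, null mouse 8637 sits with or below the wildtype mice and 9210 and 9121 sit above them; *Lpl* runs the other way, at 489 to 765 CPM in null and 1611 to 1724 CPM in wildtype mice.

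Levels were also divided by the length in kb of all annotated exons of a gene merged. *Lpl* then had the highest level of the members in wildtype mice, at 154 and 165 CPM per kb in 9055 and 9056. *Fabp4* (7.08 and 5.58 CPM per kb), *Cfd* (2.69 and 7.01) and *Lipe* (2.76 and 3.53) followed in the same mice. *Fabp4* was above *Lipe* in both mice, while *Cfd* was the lowest of the 3 in 9055 and the highest in 9056, so it could not be placed among them. *Cidec* (0.736 and 1.29), *Adipoq* (0.36 and 0.952), *Plin4* (0.441 and 0.465) and *Retn* (0.118 and 0.471) were lower, with ranges that overlapped between neighbours, and *Plin1* (0.0668 and 0.0123) and *Ucp1* (0.0379 and 0) lowest. In *Fnip1* null mouse 9210 the order began with *Cfd* at 164 CPM per kb, above *Lpl* at 46.6 and *Fabp4* at 30.6, and in 9121 *Cfd* (54) and *Lpl* (53.3) were alike. In null mouse 8637 *Lpl* led at 73 CPM per kb, followed by *Fabp4* at 10.8 and *Cfd* at 3.83. The annotated exons of *Fabp4* together cover its whole span of 4489 bases, so its level per kb is a low estimate. The same can hold for other members, as the merged length was 10478 bases for *Lpl* and 922 for *Cfd*. The order between genes therefore depends on these lengths. In CPM, *Lpl* was above *Cfd* in both mice, at 489 against 151 in 9210 and 558 against 49.8 in 9121.

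With all 5 mice, 8 of the 10 members had enough counts to be compared, and by edgeR's quasi-likelihood test 0 of the 8 passed an FDR of 5% with a change of at least 2-fold. Over all genes 0.404% passed as upregulated and 0.123% as downregulated. The adjusted p-values of *Lpl* (0.0506), *Plin4* (0.0635) and *Fabp4* (0.0985) were the lowest of the members, and those of the other 5 were between 0.168 and 0.244. At an unadjusted p under 0.05 there were 6 members of 8, beside 3488 of 13874 genes. The other tests made more calls: edgeR's exact test called *Plin4*, *Fabp4* and *Lpl*, DESeq2 called the same 3 members, and edgeR's likelihood ratio test called 4, with *Cfd* added. Over all genes these tests called 4.11%, 3.47% and 4.53%. Since the members were selected on this comparison, nothing is read from these counts. By size alone, 6 of the 8 members were at least 2-fold higher in null mice, beside 5.76% of all genes tested, and 1 (*Lpl*) was at least 2-fold lower, beside 220 of 13874 genes. The median log2 difference was 2.67 over the 8 members and 0.0035 over all genes. These values too describe a list selected on this comparison, and nothing is read from them. *Retn* had 3 counts in wildtype mouse 9055 and 5 in null mouse 8637. It therefore met the filter with the help of null mice 9210 and 9121, in which it was high. The 2 members left out, *Plin1* and *Ucp1*, also had their highest counts in null mice 9210 and 9121.

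The calls depended on the test and on the mice. Of all settings tried, leaving out *Fnip1* null mouse 8637 gave the most members passing. Without 8637, 7 of the 8 members compared above passed by the quasi-likelihood test. Over all genes 4.73% then passed as upregulated and 2.07% as downregulated. The log2 differences were then 4.07 for *Adipoq*, 4.48 for *Cfd*, 3.91 for *Retn*, 2.85 for *Plin4*, 3.30 for *Cidec*, 2.00 for *Fabp4* and -1.67 for *Lpl*. *Lipe*, at 0.76, had an adjusted p of 0.026 but did not reach 2-fold. *Plin1* is not counted, because it met the filter on counts only through the null mice in which it was high. *Retn* and *Adipoq* are counted, although of the wildtype mice only 9056 reached 10 counts, with 13 and 23. These members therefore also met the filter with the help of the null mice in which they were high. Leaving out a mouse because it lies with the other genotype favours such calls, and they are given for their dependence on 8637 only. Without 9055, 9056, 9210 or 9121, 0 members passed by edgeR's quasi-likelihood test, and 3, 2, 3 and 7 had an unadjusted p under 0.05. Over all genes tested in these fits, 2485 of 14139, 1233 of 14150, 2084 of 14021 and 2890 of 13980 did. Without null mouse 9121, which differed in sex chromosome transcripts, the log2 differences were 3.61 for *Adipoq*, 4.10 for *Cfd*, 3.34 for *Retn*, 2.62 for *Plin4*, 2.93 for *Cidec*, 0.50 for *Lipe*, 1.71 for *Fabp4* and -1.41 for *Lpl*, close to those of all 5 mice. The fit of wildtype mice 9055 and 9056 and null mice 8637 and 9210 thus kept the directions. For *Adipoq*, *Cfd*, *Retn* and *Cidec* the direction came from 9210 alone. Mouse 8637 was at 0.65, 0.79, 0.634 and 0.657 times the wildtype mean for these genes.

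The members also differed between single mice of a genotype. Between null mice 9210 and 9121 the ratio of CPM was 3.03 for *Cfd*, 2.9 for *Cidec*, 2.46 for *Adipoq*, 2.08 for *Plin1* and 1.88 for *Retn*, outside the range of 0.536 to 1.67 that held the middle 95% of 13273 genes with a mean of at least 1 CPM. *Plin4* (1.59), *Fabp4* (1.54), *Lipe* (1.16) and *Lpl* (0.875) were inside it. Between wildtype mice 9056 and 9055 the ratio was 2.65 for *Adipoq*, 2.6 for *Cfd*, 3.99 for *Retn* and 1.76 for *Cidec*, above the range of 0.519 to 1.39 over the same genes, although from as few as 3 counts. *Plin1* went the other way, at 0.184, below that range, from 1 and 5 counts. *Plin4* (1.06), *Lipe* (1.28), *Lpl* (1.07) and *Fabp4* (0.788) were inside it. *Ucp1* had a ratio of 3.38 between 9210 and 9121 from 18 and 6 counts. It and the 5 other members outside the range between these mice all overlapped between genotypes, and so did *Lipe*, which was inside it.

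**Figure D2:**
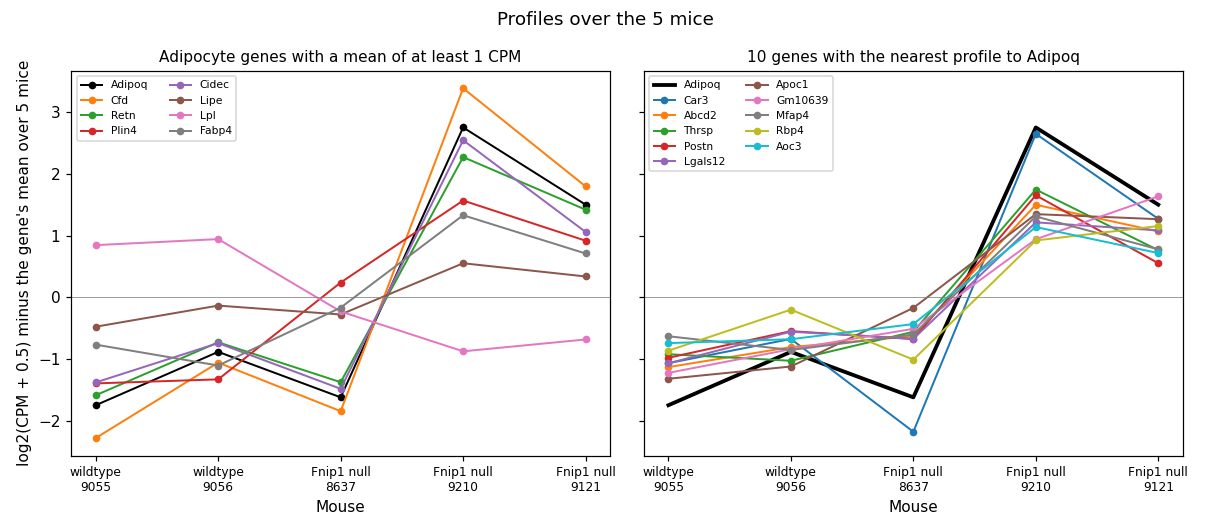
Log2(CPM + 0.5) of each gene minus the mean of that gene over the 5 mice, for the adipocyte genes tested (left) and for the 10 other genes nearest to *Adipoq* (right), 1 line per gene and 1 position per mouse. *Adipoq*, *Cfd*, *Retn* and *Cidec* run together, low in null mouse 8637 and highest in 9210, *Lpl* is highest in the wildtype mice, and *Car3* is the line nearest to *Adipoq* on the right, at a distance of 0.42.

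To give the likeness of these profiles a number, the root mean square difference from *Adipoq* was taken over the 5 mice after centring log2(CPM + 0.5) of each gene on its mean. Among 13273 genes, *Retn* (0.264), *Cidec* (0.288) and *Cfd* (0.413) were the 3 nearest to *Adipoq*, and *Plin1* was at 0.47. *Plin4* (1.05) and *Fabp4* (1.07) were farther, and *Lipe* (1.43) was nearer to a flat profile, which lies at 1.80. *Lpl* was at 2.45, past nearly all genes, whose median was 1.81. The points are 5 libraries that share their depth and genotype, so these distances describe the profiles and carry no test.

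Of the genes that are not members, *Car3*, a carbonic anhydrase abundant in fat and muscle, was nearest to *Adipoq* at 0.42. It was at 10.2 and 13.6 CPM in wildtype mice 9055 and 9056 and at 4.48, 141 and 53.8 CPM in null mice 8637, 9210 and 9121, so 8637 was below both wildtype mice as for *Cidec*. *Abcd2* (0.791), a peroxisomal fatty acid transporter, and *Thrsp* (0.823), a lipogenic gene of fat and liver, came next. *Thrsp* was at 4.28 and 3.94 CPM in wildtype mice and 5.65, 29.9 and 14.9 CPM in null mice 8637, 9210 and 9121. The others of the 10 nearest were *Postn* (0.86), *Lgals12* (0.895), *Apoc1* (0.934), *Gm10639* (0.98), *Mfap4* (0.989), *Rbp4* (1.01) and *Aoc3* (1.07). *Lgals12* (galectin 12), *Rbp4* (retinol binding protein) and *Aoc3* (an amine oxidase) are known from adipocytes, whereas *Postn* and *Mfap4* encode matrix proteins of fibroblasts and smooth muscle.

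The members were set beside 9 lists of 123 other genes of fat and lipid handling, of which 121 were found in the files and 103 were tested. By the quasi-likelihood test 1 was upregulated and 0 were downregulated, 50 had an unadjusted p under 0.05, and the median log2 difference was 0.17. Over all genes tested, 0.404% passed as upregulated and 0.123% as downregulated, and 3488 of 13874 had an unadjusted p under 0.05. By edgeR's exact test, its likelihood ratio test and DESeq2, 16, 17 and 14 of these genes passed, beside 4.11%, 4.53% and 3.47% of all genes. The gene that passed was *Cyp4a14*, a fatty acid hydroxylase and target of PPAR alpha, at 23.6 and 48 CPM in wildtype mice and 244, 458 and 470 CPM in null mice 8637, 9210 and 9121 (log2 difference 3.45, adjusted p = 0.0411). Unlike *Adipoq*, *Cyp4a14* was high in all 3 null mice, but it no longer passed without 9055 (adjusted p = 0.216), 9056 (0.508) or 9210 (0.164) by the same edgeR test. Without mouse 8637, 21 of 108 genes passed as upregulated and 7 as downregulated, beside 4.73% and 2.07% of all genes tested. These lists were chosen with earlier results of the same data known, so nothing is read from their counts.

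Among 16 other genes of adipocyte identity and adipokines, 10 were tested, 0 passed, 8 were higher and 2 lower on average in null mice, and the median log2 difference was 0.81. *Car3* (log2 difference 2.47), *Lgals12* (2.19) and *Thrsp* (2.03) had the largest values. *Pparg*, the master regulator of fat cell formation, was at 1.92 and 1.37 CPM in wildtype mice and 1.65, 3.56 and 3.64 CPM in null mice 8637, 9210 and 9121, so 8637 lay between the wildtype mice and the other null mice above both, as for *Adipoq* at a smaller scale. *Adig* (adipogenin) and *Lep* (leptin) were too low to be tested. *Adig* was at 0, 0.0572 and 0.118 CPM in 9055, 9056 and 8637 and at 2.61 and 1.16 CPM in 9210 and 9121, and *Lep* was below 0.43 CPM in every mouse. Among 16 genes of brown and beige fat, 7 were tested, 0 passed, and 6 of the 7 were higher in null mice, *Kcnk3* (a potassium channel) with the largest log2 difference at 1.92. *Cidea*, a droplet gene of brown fat, had 2.73 CPM in 9210, 0.317 in 9121 and at most 0.124 in the other mice, so 9210 was above 9121 as for *Ucp1*. *Cox8b*, a respiratory chain gene of brown fat and muscle, was instead at 2.14 CPM in 9210 and 2.43 CPM in 9121, against at most 0.236 CPM in the other mice. *Zic1*, a brown fat transcription factor, had no count in any mouse.

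The 22 other genes of the droplet coat and of triglyceride storage did not share the direction of *Plin1*, *Plin4* and *Cidec*. Of 21 tested, 0 passed, 16 were lower and 5 higher on average in null mice, and the median log2 difference was -0.17. *Plin2*, the perilipin of most cells other than adipocytes, was at 105 and 125 CPM in wildtype and 92.1, 83.2 and 88.1 CPM in null mice 8637, 9210 and 9121, lower in every null mouse. *Plin5*, the perilipin of oxidative tissue, was lower in every null mouse too (log2 difference -0.50), and *Plin3* higher (0.56). *Mogat1* and *Hsd17b11* had the largest log2 differences of this list, at -1.43 and -1.36, followed by *Hilpda* at 0.83 among genes with a mean of at least 1 CPM.

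Beside *Lipe*, 12 other genes of lipolysis were tested, 0 passed, and 7 were higher and 5 lower on average in null mice. *Pnpla2*, the lipase that acts before *Lipe*, was at 129 and 135 CPM in wildtype and 147, 171 and 178 CPM in null mice. *Mgll*, the monoglyceride lipase that acts after it, was at 64.1 and 63.2 CPM in wildtype and 95.5, 174 and 187 CPM in null mice 8637, 9210 and 9121, a log2 difference of 1.26 with no overlap. *Ces1f*, a carboxylesterase, was lower in every null mouse, with a log2 difference of -1.59.

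Around *Lpl*, 17 of 20 partners and uptake genes were tested, 0 passed, and 10 were higher and 7 lower on average in null mice, with a median log2 difference of 0.33. *Cd36*, a fatty acid transporter, was lower in every null mouse like *Lpl*, at 754 and 795 CPM in wildtype and 410, 151 and 144 CPM in null mice 8637, 9210 and 9121 (log2 difference -1.72). *Gpihbp1*, which carries lipoprotein lipase across capillary endothelium, lay the other way, at 11.3 and 6.46 CPM in wildtype and 19.7, 21.4 and 18.5 CPM in null mice. *Apoc1* (2.75) and *Apoe* (1.95), apolipoproteins, had the largest positive log2 differences, and *Apoe* was above both wildtype mice in each null mouse. *Angptl4*, an inhibitor of the enzyme, overlapped between genotypes at 116 and 129 CPM in wildtype and 131, 144 and 60.2 CPM in null mice.

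Among 12 fatty acid synthesis genes, 0 passed and 9 were higher on average in null mice. *Scd1*, a desaturase, was at 302 and 325 CPM in wildtype and 195, 649 and 1438 CPM in null mice 8637, 9210 and 9121, below wildtype in 8637 like *Cidec* but highest in 9121. *Elovl6* (1.23) and *Me1* (-1.17) followed in size of log2 difference. The other 14 PPAR alpha targets tested beside *Cyp4a14* did not pass, and 7 of the 15 were higher and 8 lower on average. The receptors of adiponectin were at like levels in both genotypes: *Adipor1* had a log2 difference of -0.17 and *Adipor2* of -0.08, and *Cdh13*, a further adiponectin binding protein, of 0.54. For the alternative complement pathway in which *Cfd* acts, 0 of 6 genes passed, 5 were higher and 1 lower on average, and the median log2 difference was 1.08. *C3*, the substrate of the pathway, was at 33.2 and 10.3 CPM in wildtype and 53.5, 111 and 76.4 CPM in null mice, while *Cfb*, the protein *Cfd* cleaves, was at 576 and 632 CPM in wildtype and 503, 357 and 303 CPM in null mice. *C3* was above and *Cfb* below both wildtype mice in every null mouse, while *Cfd* in 8637 was within the wildtype range.

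**Figure D3:**
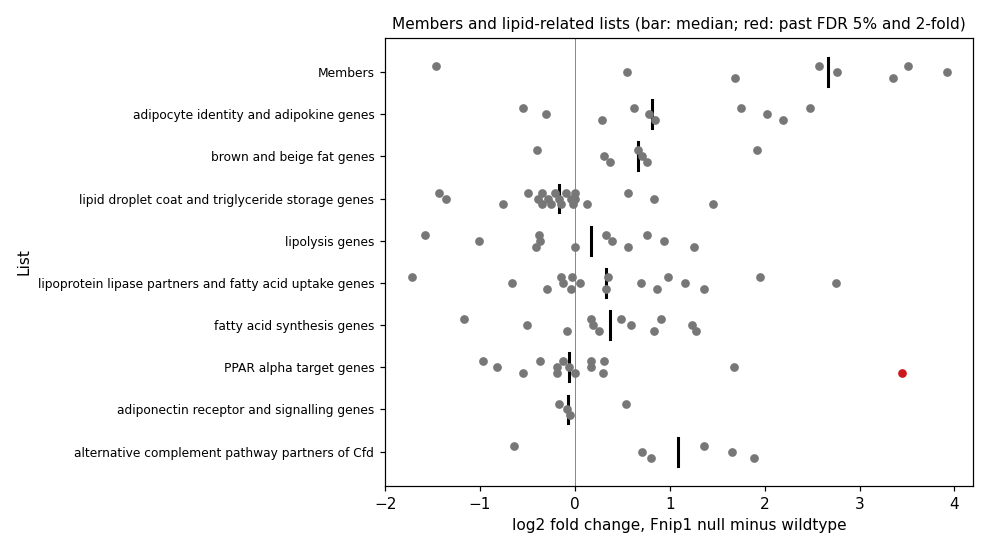
Log2 fold change, *Fnip1* null minus wildtype, of each gene tested (points) in the members and in 9 other lists, with a bar at the median of each list and red for the gene past an FDR of 5% and 2-fold. The members have a median of 2.67 with *Lpl* at -1.47, the other adipocyte identity genes a median of 0.81 and the droplet and storage genes a median of -0.17; *Cyp4a14* is the red point.

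Markers of other cell types moved between the mice beside the members, and their part in the member values was not tested. All 6 fibroblast markers were above both wildtype mice in every null mouse, as were 22.9% of all genes tested, and 0 of the 6 passed. Their summed level was 219 and 119 CPM in 9055 and 9056 and 233, 386 and 346 CPM in 8637, 9210 and 9121. Mouse 8637 was barely above 9055 for *Pdgfra* (35.7 against 35.5 CPM), *Dcn* (42.6 against 41.4) and *Col1a2* (71.1 against 69.8). It was more clearly above for *Pdgfrb* (50.2 against 42.5). The 8 macrophage markers summed to 129 and 110 CPM in wildtype and 115, 145 and 251 CPM in null mice, 6 of them above both wildtype mice in each null mouse. *Csf1r*, the largest part of the sum in wildtype mice, lay the other way, at 72.3 and 68.4 CPM in wildtype and 38.2, 36.4 and 63.8 CPM in null mice. The 6 endothelial markers summed to 269 and 164 CPM in wildtype and 289, 336 and 382 CPM in null mice. In each of these lists 9210 and 9121 were the highest mice, as for *Adipoq*. Mouse 9210 was above 9121 in the fibroblast sum, as for *Adipoq*, but below 9121 in the macrophage and endothelial sums. The 4 podocyte markers summed to 361 and 357 CPM in wildtype and 641, 754 and 683 CPM in null mice, level across the null mice where *Adipoq* was not. The 7 proximal tubule markers summed to 37941 and 41750 CPM in wildtype and 24303, 15036 and 13290 CPM in null mice, the order of mice seen for *Cd36* and close to that for *Lpl*. The largest single part of that sum was *Kap*, an androgen-regulated kidney gene, at 26735 and 29240 CPM in wildtype and 13578, 5424 and 4836 CPM in null mice 8637, 9210 and 9121. The markers of this list did not all share its direction: 3 of 7 were below both wildtype mice in every null mouse, and *Slc5a2* and *Slc5a12* were above, *Slc5a12* at 398 and 355 CPM in wildtype and 721, 571 and 457 CPM in null mice. The 7 markers of the loop, distal tubule and collecting duct summed to between 7712 and 11950 CPM, highest in 9121, and the 4 mesothelial markers to 191 and 180 CPM in wildtype and 129, 96.8 and 119 CPM in null mice. Nearly all of the mesothelial sum was *Gpm6a*, and the other 3 markers, at or under 4.27 CPM, had higher averages in null mice with overlapping groups.

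Tissues that can lie against a kidney sample gave low values. The 5 adrenal markers summed to between 2.46 and 4.54 CPM, nearly all of it *Star*, and *Th* had no count in any mouse. The 5 skeletal muscle markers summed to between 1.12 and 2.18 CPM, highest in null mouse 8637, and *Myh4* had no count. The 4 blood markers summed to between 11.5 and 23.7 CPM, nearly all *Alas2*, with *Hba-a1* and *Hbb-bt* at 0. Reads not aligned uniquely were left out, which can empty genes that have like copies. The blood content of the samples can therefore not be read from these markers. The 5 urothelial markers of the renal pelvis summed to 16 CPM in null mouse 9121 and at most 3.09 CPM in the others. *Adipoq* and *Cfd* were highest in 9210. These lists do not measure the fat around the kidney, and the part of adjacent tissue in the member values was not tested.

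**Figure D4:**
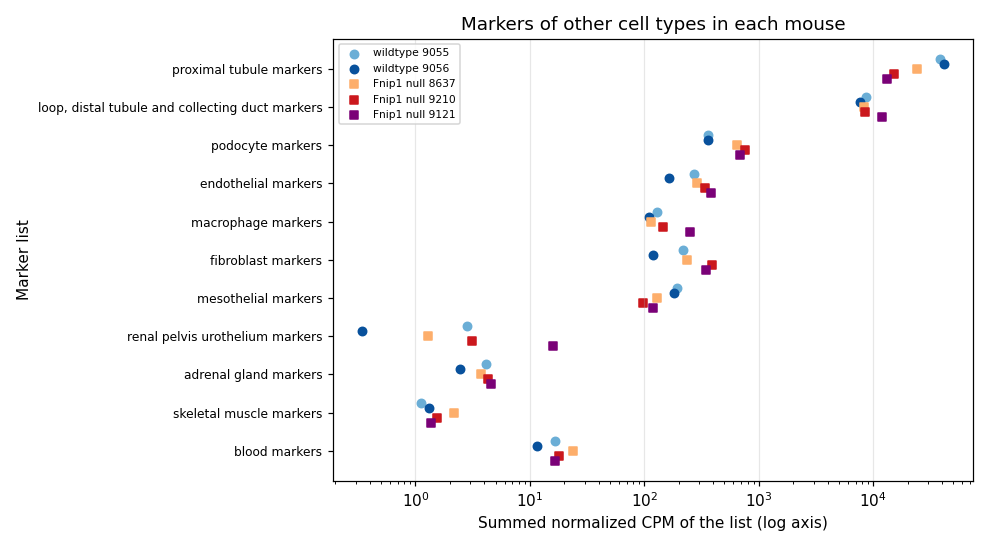
Summed normalized CPM (log axis) of markers of other cell types, 1 point per mouse, with circles for wildtype and squares for *Fnip1* null mice. Fibroblast, macrophage and endothelial sums are highest in null mice 9210 and 9121, proximal tubule sums run from 13290 to 24303 CPM in null and 37941 to 41750 CPM in wildtype mice, and skeletal muscle and adrenal sums reach at most 4.54 CPM.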

How the data were processed

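RNAseq libraries of kidney cortical tissue of 3 *Fnip1* null and 2 wildtype mice were analysed, 1 library per mouse. The design text of the series calls the mice independent. The authors made TruSeq libraries, sequenced them from both ends, and deposited read counts per gene symbol without normalization. Per the labels, bcl2fastq 1.8.2, TopHat2 2.1.0, HTSeq 0.6.1 and the build mm10 were used. Reads of no gene (9.91 to 10.8% of all rows), not uniquely aligned (28.3 to 31.4%) or ambiguous (0.741 to 0.803%) were left out of library sizes and tests.

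A gene was tested unless more than 2 of 5 mice had fewer than 10 counts, which left 13874 of 24421. Counts were TMM-normalized (factors 0.914 to 1.09) and compared with edgeR 4.0.16 (R 4.3.3, limma 3.58.1) by its quasi-likelihood test, with Benjamini-Hochberg adjustment over all genes tested. A gene passed if its FDR was 5% or less and its change 2-fold or more. Values for single mice are normalized CPM, and errors after ± are SD. The SE of a log2 difference was computed back from the test. It is the absolute log2 difference divided by the square root of the quasi-likelihood F statistic. It therefore restates the test result and is no separate estimate of spread. Permuting 5 mice cannot bring 1 gene to 0.05, so no permutation test was run. No mouse was a repeat of another: within a genotype the counts differed by far more than sampling noise.

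The members and all gene lists were chosen with earlier results of these data known. Named genes are the members, the genes past the threshold in each list or else the 3 with the largest log2 fold change at a mean of at least 1 CPM, and the 10 genes nearest to *Adipoq*. An item that this rule names is not reported here. Further genes named (*Pparg*, *Adig*, *Lep*, *Cidea*, *Cox8b*, *Zic1*, *Plin2*, *Plin3*, *Plin5*, *Pnpla2*, *Gpihbp1*, *Angptl4*, *Cfb*) were chosen after their values were seen. As alternatives, DESeq2 1.42.0, edgeR's likelihood ratio test and exact test and its older quasi-likelihood method were run, the scaling, the filter and the fold threshold were changed, and each mouse was left out. The fitting code was first tested on simulated data with known changes. Promoter windows were held for 8 of the 10 members, and those of *Adipoq*, *Cfd*, *Retn* and *Cidec* are shown.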

Additional observations from a re-analysis of the deposited data

How the results depend on the processing

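Of the members, 0 passed with all 5 mice by the quasi-likelihood test (6 at an unadjusted p under 0.05), 3 by the exact test of edgeR, 4 by its likelihood ratio test, 3 by DESeq2, and 1 (*Lpl*) each under the legacy method, library size scaling, no filter on low counts and a filter of 1 CPM in 2 mice. For all genes, 73 passed with all 5 mice, 570 by the exact test, 628 by the likelihood ratio test and 482 by DESeq2; for the genes of the lists these numbers were 1, 16, 17 and 14. When each mouse was left out in turn, between 0 and 8 members, between 0 and 962 genes and between 0 and 28 list genes passed. The highest numbers were those without null mouse 8637, where the 8 include *Plin1*. Without 9055, 9056 or 9210 no gene passed by edgeR's quasi-likelihood test, although 2485, 1233 and 2084 had an unadjusted p under 0.05, and without 9121 136 genes passed. Where a wildtype mouse was left out, the lone one was assumed to vary like the null mice.

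All 104 member fold changes recomputed kept their direction, and 21 passed the threshold under an alternative. Without a mouse the log2 difference ran from 2.39 to 4.38 for *Adipoq*, from 2.57 to 4.77 for *Cfd*, from 2.49 to 4.66 for *Retn*, from 1.52 to 3.30 for *Cidec*, from 1.28 to 2.00 for *Fabp4* and from -1.67 to -1.33 for *Lpl*. *Adipor2* turned from -0.0811 to 0.0811 with library size scaling. No paired analysis was possible because the mouse numbers name single animals and none is shared between genotypes. The cause of these changes was not tested. At this depth, values under 0.158 to 0.186 CPM cannot be told from no expression.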
